A study of Mus musculus with 16 samples.

Results

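The microRNAs described here are miR-99a-5p, miR-99b-5p, miR-100-5p, miR-125a-5p and miR-125b-5p, which are 5 of the 1621 mature mouse microRNA arms counted in the small RNA of mouse sperm. Each is encoded beside a let-7 gene, and its let-7 neighbours are followed with it. A read was counted for an arm when it was 20 to 26 nt long and its first 20 bases equalled the first 20 bases of the mature sequence. All 5 were detected in all 8 libraries, with 53 to 5873 reads per arm and library. All 5 were among the 187 arms that passed the filter on low counts.

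Sperm came from the cauda epididymis of males in 4 groups with 2 libraries each: Dnmt2-/- on a high-fat diet (HFD, D12492), Dnmt2+/+ on HFD, Dnmt2-/- on a normal diet (ND, Diet 1415) and Dnmt2+/+ on ND. Dnmt2, also named Trdmt1, is a cytosine methyltransferase of tRNA, and its knockout allele (Dnmt2tm1Bes/J) had more than 5 backcross generations to C57BL/6NCrl, the background of all groups. The labels name purchased males 6 weeks old and adult mice at sperm collection; sperm were released into saline and pelleted at 600 g, and no further step to remove other cells is given. The labels do not say whether replicates were separate animals or pools, so p-values measure the spread between these libraries, which may be technical. The deletion of Dnmt2 cannot be checked in small RNA.

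Mammalian genomes carry paralogous clusters in which a microRNA of the miR-99/miR-100 family, a let-7 microRNA and a miR-125 microRNA follow each other on the same strand. A mature microRNA sits in an Argonaute protein and recognises messenger RNAs mainly through its seed, bases 2 to 8. let-7 microRNAs accumulate as cells differentiate and repress Lin28 and Hmga2, miR-125 microRNAs are the vertebrate relatives of the worm microRNA lin-4 and also repress Lin28, and miR-99/miR-100 microRNAs are known to repress Mtor. All 3 families are widespread in somatic tissues, and microRNAs in cauda sperm can come from the germ cell or be taken up in the epididymis.

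The mature sequences are shown first because they define the families and set which reads could be told apart. They are from RefSeq (GRCm38.p6), written 5′ to 3′, with the seed in capitals.
miR-99a-5p: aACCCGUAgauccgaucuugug
miR-100-5p: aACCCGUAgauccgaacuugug
miR-99b-5p: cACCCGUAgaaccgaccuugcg
miR-125a-5p: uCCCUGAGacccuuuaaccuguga
miR-125b-5p: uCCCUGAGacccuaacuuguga
let-7c-5p: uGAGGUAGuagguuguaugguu
let-7a-5p: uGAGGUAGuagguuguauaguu
let-7e-5p: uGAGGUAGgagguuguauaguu

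miR-99a-5p, miR-100-5p and miR-99b-5p share the seed ACCCGUA, miR-125a-5p and miR-125b-5p share CCCUGAG, and the let-7 arms share GAGGUAG. Counted from the 5′ end, miR-100-5p differs from miR-99a-5p only by U16A, and miR-99b-5p differs from miR-99a-5p by A1C, U11A, U16C and U21C. let-7c-5p differs from let-7a-5p by A19G, and let-7e-5p by U9G. All these differences except U21C lie within the 20 bases used to assign a read. Reads with C or G at base 16 of the shared miR-99a and miR-100 sequence numbered 1.19 to 3.91 per 100 miR-100-5p reads.

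The miR-99a cluster on chromosome 16 holds Mir99a (chr16:77598936-77599000), Mirlet7c-1 656 bases further on (chr16:77599657-77599750) and Mir125b-2 another 46522 bases on (chr16:77646273-77646343). The miR-100 cluster on chromosome 9 holds Mir100 (chr9:41531425-41531504), Mirlet7a-2 (chr9:41536716-41536811) and Mir125b-1 (chr9:41581926-41582002) and lies within the long noncoding RNA gene Mir100hg (chr9:41376526-41615185). The miR-99b cluster on chromosome 17 is compact: Mir99b (chr17:17830188-17830257), Mirlet7e (chr17:17830352-17830444) and Mir125a (chr17:17830812-17830879) span 692 bases inside Spaca6 (chr17:17826085-17843010), a protein-coding gene needed for sperm to fuse with the egg. All are on the plus strand of GRCm38.p6. miR-125b-5p is made from both Mir125b-1 and Mir125b-2, and let-7a-5p and let-7c-5p are also made from genes outside these clusters, so their reads cannot be assigned to a cluster; miR-99a-5p, miR-100-5p, miR-99b-5p, let-7e-5p and miR-125a-5p each come from 1 gene.

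The libraries held 10165031 to 19030258 reads, of which microRNA arms took 2.61% to 7.01% on HFD and 1.08% to 2.76% on ND. The libraries fell into 3 sets by their substitution errors. Set A, with 396 to 537 G-to-T errors per 10000 reads at base 29 against at most 4.18 in the other libraries, holds Dnmt2-/- ND replicates 1 and 2 and Dnmt2+/+ ND replicate 1. Set B, with 9.88 to 10.8 C-to-G errors per 10000 reads at base 26 against at most 1.41 in the others, holds Dnmt2-/- HFD replicate 1 and Dnmt2+/+ HFD replicates 1 and 2. The remaining libraries, Dnmt2-/- HFD replicate 2 and Dnmt2+/+ ND replicate 2, are set C, defined by lacking both signatures. They had 2.25 and 2.24 C-to-A errors per 10000 reads at base 2, against 1.6 to 1.75 in set B and 23.8 to 24.2 in set A. No label gives a run or a date, so the sets are inferred. Whether the libraries of set C were sequenced together is not known. All of set A is ND and all of set B is HFD, so in these 6 libraries diet and set cannot be told apart. Set C alone holds both diets, in libraries that also differ in genotype.

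Levels are given as CPM, the count per 1000000 reads in that library, and need no length scaling because every read is of 20 to 26 nt. miR-99a-5p was the most abundant of the 5 in every library and made up 58.2% to 74.5% of their summed reads. It exceeded miR-100-5p by 3.52 to 9.08 times, miR-125b-5p by 3.74 to 17.5 times, miR-99b-5p by 4.38 to 15.1 times and miR-125a-5p by 9.79 to 25.9 times. miR-100-5p stood above miR-99b-5p in 8 of 8 libraries, by 1.07 to 1.94 times, and miR-125b-5p above miR-125a-5p in 8 of 8, by 1.34 to 3.49 times. miR-125b-5p had no fixed place against miR-100-5p or miR-99b-5p: it was above each of them in 4 of 8 libraries. The 5 together made up 0.916% to 1.32% of microRNA reads on HFD and 0.792% to 2.75% on ND, while the 9 let-7 arms made up 43.7% to 67.5% on HFD and 15.8% to 24% on ND.

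Diet was compared first over both genotypes, the question being whether the cluster partners of let-7 follow it. They did not separate the diets: all 5 were higher on HFD on average, none passed the test, and the HFD and ND libraries overlapped for each. The 9 let-7 arms all passed and all were higher on HFD. In bulk sperm RNA, fewer cells that carry a microRNA and less of it per cell cannot be told apart.

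miR-99a-5p, of the family that represses Mtor, was at 390.4 and 200.3 CPM in Dnmt2-/- HFD sperm and 513 and 299.9 CPM in Dnmt2+/+ HFD sperm, against 141 and 94.4 CPM in Dnmt2-/- ND sperm and 143 and 430.3 CPM in Dnmt2+/+ ND sperm. The 3 ND libraries of set A lay below every HFD library, and Dnmt2+/+ ND replicate 2 lay above all HFD libraries except Dnmt2+/+ HFD replicate 1. It averaged 351 ± 133 CPM on HFD and 202 ± 154 CPM on ND (SD, n = 4 each), a log2 fold change of 0.92 ± 0.48 (SE; edgeR quasi-likelihood test, adjusted p = 0.207).

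miR-100-5p, which differs from it by 1 base, was at 57.1 and 56.9 CPM in Dnmt2-/- HFD sperm and 63.1 and 45.9 CPM in Dnmt2+/+ HFD sperm, against 25.9 and 22.3 CPM in Dnmt2-/- ND sperm and 31.6 and 47.4 CPM in Dnmt2+/+ ND sperm. The diets overlapped only by Dnmt2+/+ ND replicate 2, which stood just above the lowest HFD library. The log2 fold change was 0.85 ± 0.42 (SE; edgeR, adjusted p = 0.191), from 55.8 ± 7.16 CPM on HFD against 31.8 ± 11.1 CPM on ND (SD, n = 4 each).

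miR-99b-5p, the third arm with the ACCCGUA seed, was at 29.4 and 45.7 CPM in Dnmt2-/- HFD sperm and 33.9 and 31.7 CPM in Dnmt2+/+ HFD sperm, against 14.4 and 17.1 CPM in Dnmt2-/- ND sperm and 29.4 and 33.4 CPM in Dnmt2+/+ ND sperm. Both Dnmt2+/+ ND libraries lay within the HFD range and both Dnmt2-/- ND libraries below it. Its log2 fold change of 0.66 ± 0.43 was the smallest of the 5 (SE; edgeR, adjusted p = 0.277), with 35.2 ± 7.25 CPM on HFD and 23.6 ± 9.25 CPM on ND (SD, n = 4 each).

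miR-125b-5p, a relative of lin-4, was at 102 and 26.9 CPM in Dnmt2-/- HFD sperm and 93.4 and 80.1 CPM in Dnmt2+/+ HFD sperm, against 10.6 and 5.4 CPM in Dnmt2-/- ND sperm and 8.46 and 50.2 CPM in Dnmt2+/+ ND sperm. Both libraries of set C lay between the others, and the ND one was the higher of them. It averaged 75.7 ± 33.8 CPM on HFD and 18.7 ± 21.1 CPM on ND (SD, n = 4 each), a log2 fold change of 2.29 ± 0.71 (SE; edgeR, adjusted p = 0.0807).

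miR-125a-5p, with the same seed, was at 39.9 and 14.1 CPM in Dnmt2-/- HFD sperm and 26.8 and 30.1 CPM in Dnmt2+/+ HFD sperm, against 6.9 and 4.03 CPM in Dnmt2-/- ND sperm and 5.89 and 16.6 CPM in Dnmt2+/+ ND sperm. As with miR-125b-5p, the overlap came from set C, whose ND library stood above its HFD library. The log2 fold change was 1.82 ± 0.60 (SE; edgeR, adjusted p = 0.0903), with 27.7 ± 10.6 CPM on HFD and 8.36 ± 5.64 CPM on ND (SD, n = 4 each).

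**Figure D1:**
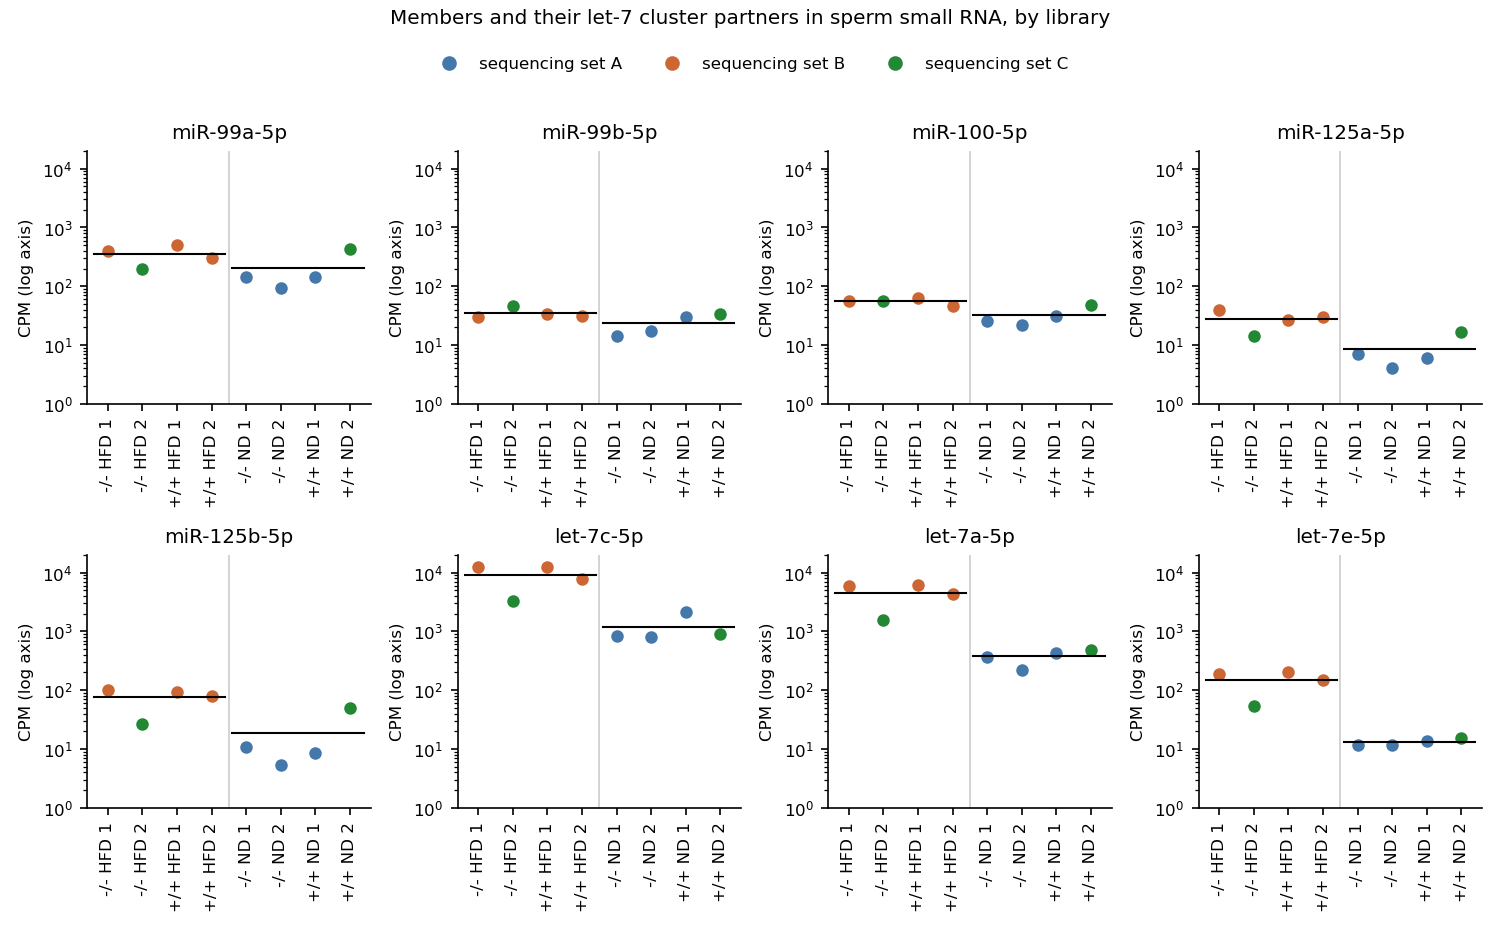
Level of the 5 microRNAs and their 3 let-7 neighbours in CPM (log axis), 1 point per library, HFD libraries left and ND libraries right, coloured by sequencing set; the bar is the mean of 4 libraries. The 5 overlap between diets, with Dnmt2+/+ ND replicate 2 at 430.3 CPM for miR-99a-5p and 50.2 CPM for miR-125b-5p, while every HFD library lies above every ND library for let-7c-5p, let-7a-5p and let-7e-5p.

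Of the 5, edgeR called 0 at an adjusted p under 0.05, beside 14 of 187 arms called (7.49%), all 14 higher on HFD. DESeq2, which scales libraries by its own size factors, called 26 of 187 arms, 13 of them higher on HFD, and 0 of the 5. In edgeR's test 2 of them, miR-125a-5p and miR-125b-5p, had an unadjusted p under 0.05, beside 57 of all 187 arms. Their median log2 fold change was 0.92, and that of all 187 arms was 1.31; 173 arms lay above 0, so a positive sign is the rule among arms. Ranked from the highest log2 fold change, miR-125b-5p was 29th and miR-125a-5p 55th of 187, and miR-99a-5p, miR-100-5p and miR-99b-5p were 122nd, 129th and 149th. The HFD and ND libraries did not overlap for 0 of the 5 and for all 9 let-7 arms, against 26 of 187 arms (13.9%) with all HFD libraries above all ND libraries. In simulated counts of this size the test recovered 30.4% of arms changed 4-fold and 100% of those changed 16-fold, so smaller differences can be missed.

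The call depended on Dnmt2+/+ ND replicate 2. Without it, edgeR called 147 of 207 arms on diet (71%), among them miR-99a-5p (log2 fold change 1.42, adjusted p = 0.0229), miR-100-5p (1.01, adjusted p = 0.0386), miR-125a-5p (2.29, adjusted p = 0.0104) and miR-125b-5p (3.18, adjusted p = 0.0062), but not miR-99b-5p (0.70, adjusted p = 0.127). No set then holds both diets. With any other library left out, none of the 5 was called. Without the filter on low counts, miR-125b-5p was called as well (adjusted p = 0.0108 in edgeR), beside 28 of 545 arms (5.14%). Fewer let-7 arms were called without Dnmt2-/- ND replicate 1 or without Dnmt2-/- ND replicate 2, where fewer arms were called in all. The let-7 median log2 fold change was then 3.73 and 3.45, against 3.52 with all libraries. It was 3.66 without Dnmt2+/+ ND replicate 2. With the sequencing set as a term 0 of the 9 let-7 arms were called, beside 0 of 187 arms.

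The let-7 neighbours were called in the same libraries. let-7c-5p, which lies next to miR-99a on chromosome 16, was at 12494 and 3274 CPM in Dnmt2-/- HFD sperm and 12548 and 7750 CPM in Dnmt2+/+ HFD sperm, against 829 and 799.9 CPM in Dnmt2-/- ND sperm and 2177 and 906 CPM in Dnmt2+/+ ND sperm. let-7a-5p was at 6008 and 1590 CPM in Dnmt2-/- HFD sperm and 6275 and 4280 CPM in Dnmt2+/+ HFD sperm, against 365 and 222 CPM in Dnmt2-/- ND sperm and 428 and 491 CPM in Dnmt2+/+ ND sperm. let-7e-5p, from the compact cluster, was at 186 and 54.7 CPM in Dnmt2-/- HFD sperm and 202 and 149.5 CPM in Dnmt2+/+ HFD sperm, against 11.8 and 11.6 CPM in Dnmt2-/- ND sperm and 13.8 and 15.5 CPM in Dnmt2+/+ ND sperm. For all 3 every HFD library lay above every ND library, also in set C. Their log2 fold changes were 3.00 ± 0.51, 3.61 ± 0.49 and 3.47 ± 0.52 (SE; edgeR, adjusted p = 0.00959, 0.00562 and 0.00798).

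Because a ratio of counts within a library does not depend on how libraries are scaled, each of the 5 was set against the let-7 arm of its cluster. The ratio was lower in all 4 HFD libraries than in all 4 ND libraries for 5 of 6 such pairs. That was common among the 178 tested arms outside let-7: it held for 38 of them against let-7c-5p (21.3%), 82 against let-7a-5p (46.1%) and 85 against let-7e-5p (47.8%). None passed after adjustment over the 18 ratio tests: the smallest p that 4 libraries against 4 can give is 0.0286 (two-sided exact permutation test), and all 5 pairs reached it, with an adjusted p of 0.0857.

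In the chromosome 17 cluster there were 15.8 and 83.5 miR-99b-5p reads per 100 let-7e-5p reads in Dnmt2-/- HFD sperm and 16.8 and 21.2 in Dnmt2+/+ HFD sperm, against 123 and 147 in Dnmt2-/- ND sperm and 213 and 215 in Dnmt2+/+ ND sperm. miR-99b-5p had fewer reads than let-7e-5p in every HFD library and more in every ND library. The difference in log2 ratio, HFD minus ND, was -2.70 over all libraries and -1.36 within set C.

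miR-125a-5p stood at 21.5 and 25.8 reads per 100 let-7e-5p reads in Dnmt2-/- HFD sperm and at 13.3 and 20.1 in Dnmt2+/+ HFD sperm, against 58.7 and 34.6 in Dnmt2-/- ND sperm and 42.6 and 107 in Dnmt2+/+ ND sperm. Its difference in log2 ratio was -1.49, and -2.05 within set C. The hairpins of miR-99b and let-7e are 94 bases apart and those of let-7e and miR-125a 367 bases. Which of these pairs had the larger difference depended on the libraries: miR-99b-5p to let-7e-5p over all 8, and miR-125a-5p to let-7e-5p within set C.

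For the chromosome 16 cluster, miR-99a-5p stood at 3.12 and 6.12 reads per 100 let-7c-5p reads in Dnmt2-/- HFD sperm and at 4.09 and 3.87 in Dnmt2+/+ HFD sperm, against 17 and 11.8 in Dnmt2-/- ND sperm and 6.57 and 47.5 in Dnmt2+/+ ND sperm. The difference in log2 ratio was -1.92, and -2.96 within set C. miR-125b-5p against let-7c-5p was the pair that overlapped, at 0.82 and 0.822 reads per 100 in Dnmt2-/- HFD sperm and 0.745 and 1.03 in Dnmt2+/+ HFD sperm, against 1.28 and 0.675 in Dnmt2-/- ND sperm and 0.389 and 5.54 in Dnmt2+/+ ND sperm. Its difference was -0.46 (two-sided exact permutation p = 0.714, adjusted p = 1), and it turned to 0.29 without Dnmt2+/+ ND replicate 2.

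For the chromosome 9 cluster, miR-100-5p stood at 0.95 and 3.58 reads per 100 let-7a-5p reads in Dnmt2-/- HFD sperm and at 1.01 and 1.07 in Dnmt2+/+ HFD sperm, against 7.1 and 10 in Dnmt2-/- ND sperm and 7.38 and 9.66 in Dnmt2+/+ ND sperm. The difference in log2 ratio was -2.61, and -1.43 within set C. miR-125b-5p stood at 1.71 and 1.69 reads per 100 let-7a-5p reads in Dnmt2-/- HFD sperm and at 1.49 and 1.87 in Dnmt2+/+ HFD sperm, against 2.91 and 2.43 in Dnmt2-/- ND sperm and 1.98 and 10.2 in Dnmt2+/+ ND sperm. Its difference was -1.04, and -0.52 without Dnmt2+/+ ND replicate 2. The HFD values of miR-125b-5p lay within a narrow span in both ratios, and Dnmt2+/+ ND replicate 2 was far above all other libraries.

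**Figure D2:**
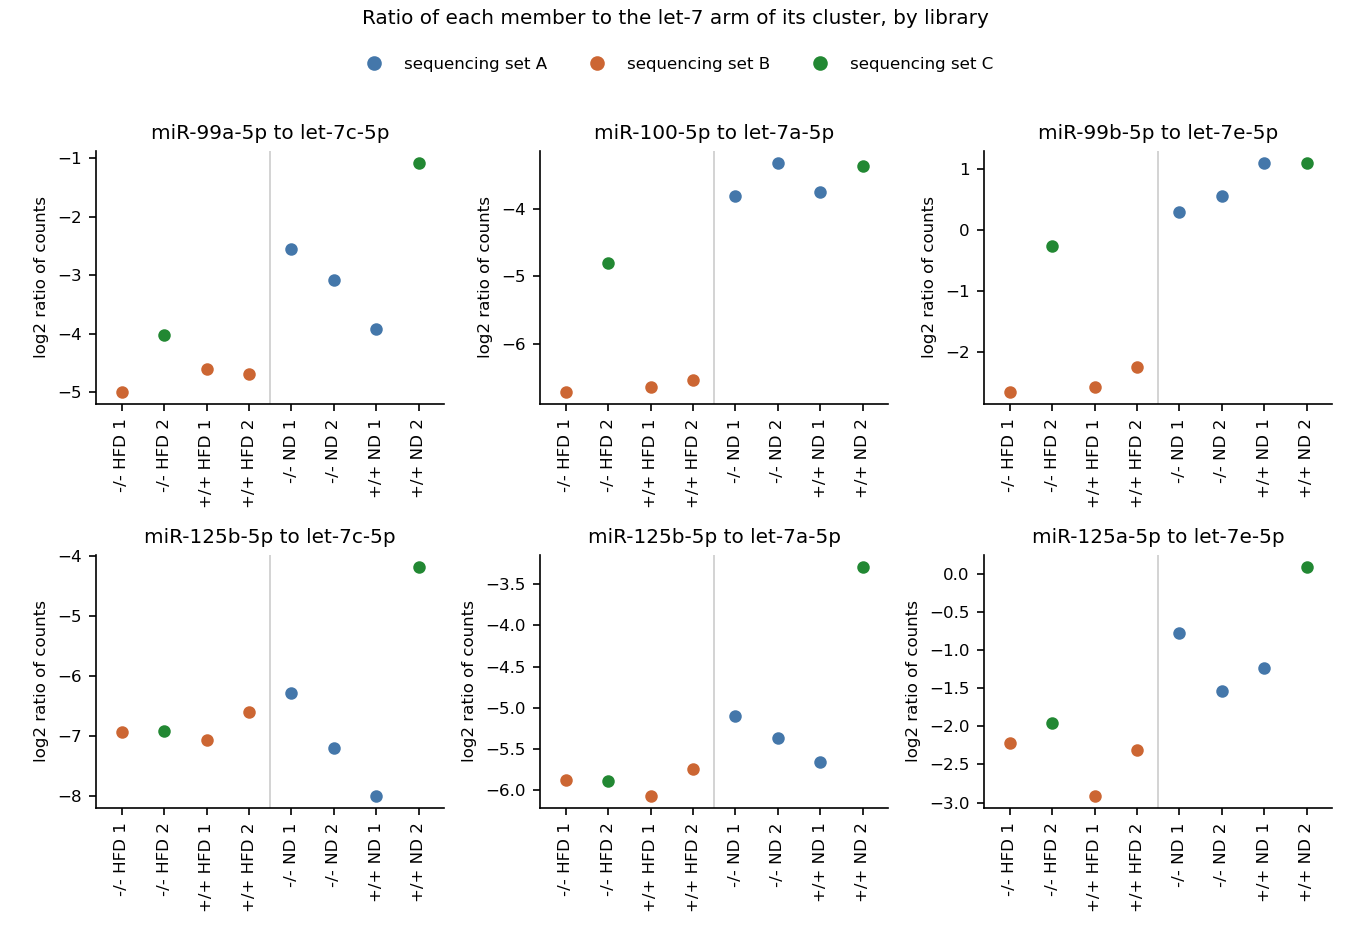
Log2 ratio of the counts of each of the 5 microRNAs to the let-7 arm of its cluster, 1 point per library, HFD left and ND right, coloured by sequencing set, with an axis of its own for each panel. In 5 of 6 panels all HFD points lie below all ND points; miR-125b-5p to let-7c-5p overlaps.

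The miR-99/miR-100 and miR-125 families were also set against each other within clusters. The log2 ratio of miR-99a-5p to miR-125b-5p was lower in all 4 HFD libraries, with a difference of -1.46 (two-sided exact permutation p = 0.0286, adjusted p = 0.0857) that shrank to -0.20 within set C. Those of miR-100-5p to miR-125b-5p and of miR-99b-5p to miR-125a-5p differed by -1.57 and -1.20 and overlapped between diets (two-sided exact permutation p = 0.0571 and 0.0857, adjusted p = 0.147 and 0.193). Within set C both ran the other way, at 1.16 and 0.69.

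The sign of the diet difference of miR-99a-5p, miR-100-5p and miR-99b-5p depended on the scaling. Per library read they were at 0.92, 0.85 and 0.66, per microRNA read at -0.74, -0.66 and -0.76, with TMM at -0.69, -0.82 and -1.02, and with DESeq2 size factors at -0.58, -0.73 and -0.94 (log2 fold change, HFD over ND). The median of all arms moved with it, at 1.31, -0.37, -0.08 and 0.00. Relative to that median, these 3 were lower and miR-125a-5p and miR-125b-5p higher under each of the 4 scalings. miR-125a-5p was at 0.14 and miR-125b-5p at 0.53 per microRNA read, at 0.19 and 0.77 with TMM, and at 0.30 and 0.89 with DESeq2. None of the 5 was called under these scalings, whose own counts were 9 of 178 arms (6 of them higher), 6 of 187 (4 higher) and 26 of 187 (13 higher); of the 9 let-7 arms 4, 2 and 6 were called, all higher.

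**Figure D3:**
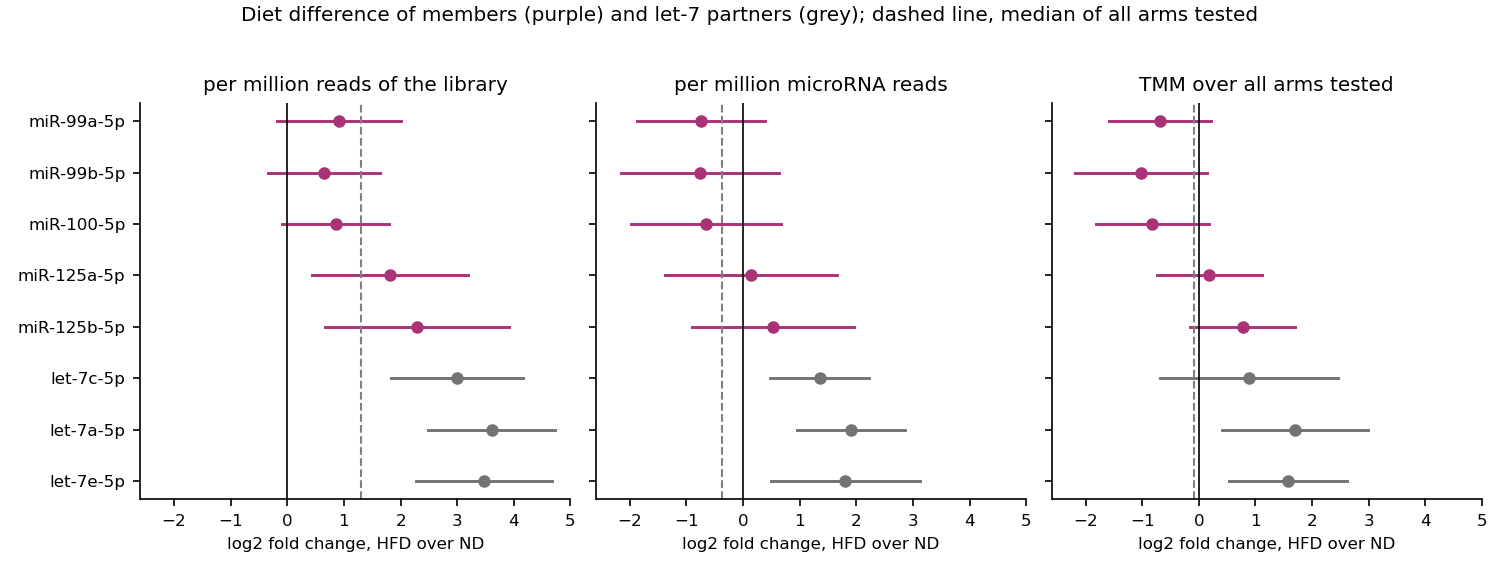
Log2 fold change of HFD over ND (x axis) for the 5 microRNAs in purple and 3 let-7 arms in grey under 3 scalings, with the 95% confidence interval of the fit as a bar; the dashed line is the median of all arms tested. miR-99a-5p, miR-99b-5p and miR-100-5p lie left of the median and change sign between scalings, while miR-125a-5p, miR-125b-5p and the let-7 arms lie right of it in each panel.

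Within set C, the only inferred set that holds both diets, the 5 did not move as a group. Its libraries differ in genotype too. miR-99a-5p was at 200.3 CPM in the HFD library and 430.3 CPM in the ND library, which is 2.15 times as high in ND. miR-125b-5p was at 26.9 CPM on HFD and 50.2 CPM on ND, and miR-125a-5p at 14.1 CPM on HFD and 16.6 CPM on ND. miR-99b-5p and miR-100-5p were higher on HFD, by 1.37 and 1.20 times. let-7a, let-7b, let-7c, let-7e and let-7f were 3.24 to 4.10 times as high in the HFD library, and let-7d, let-7g, let-7i and miR-98 were 1.10 to 1.28 times as high. With the set as a term in the edgeR fit, miR-99a-5p had a log2 fold change of -0.93, miR-125a-5p -0.43, miR-125b-5p -0.98, miR-100-5p 0.43 and miR-99b-5p 0.98. The 9 let-7 arms lay between 0.11 and 2.41 (median 1.88), the median of all arms was -0.70, and 0 of 187 arms were called. In that fit diet is informed by set C and genotype by sets A and B.

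Genotype was compared over both diets to ask whether loss of Dnmt2 changes these microRNAs. All 5 were lower in Dnmt2-/- sperm on average and none passed: edgeR called 0 of 187 arms (0%), with 14 at an unadjusted p under 0.05, none of them among the 5, and DESeq2 called 0. miR-125b-5p was at 36.3 ± 45 CPM in Dnmt2-/- sperm and 58 ± 37.7 CPM in Dnmt2+/+ sperm, with a log2 fold change of -1.15 ± 0.68 (SE; adjusted p = 0.314). miR-99a-5p was at 207 ± 130 CPM in Dnmt2-/- sperm and 347 ± 162 CPM in Dnmt2+/+ sperm, with -0.87 ± 0.48 (SE; adjusted p = 0.292). miR-125a-5p, miR-99b-5p and miR-100-5p were at -0.56, -0.40 and -0.32, and the median of all arms was -1.06. Only 7 of 187 arms lay above 0, so a negative sign is the rule among arms. Genotype is also uneven over the sets: set A holds more Dnmt2-/- libraries and set B more Dnmt2+/+ libraries. Without Dnmt2+/+ ND replicate 1, 70 of 217 arms were called as lower in Dnmt2-/- sperm, again with none of the 5.

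Genotype could also be compared within sets A and B, with 1 library on one side and no test. In set A, on ND, the log2 ratio of Dnmt2-/- to Dnmt2+/+ CPM was -0.28 for miR-99a-5p, -0.90 for miR-99b-5p, -0.39 for miR-100-5p, -0.11 for miR-125a-5p and -0.08 for miR-125b-5p. In set B, on HFD, it was -0.06, -0.16, 0.07, 0.49 and 0.24 in the same order. The widest was that of miR-99b-5p in set A, at a mean of 15.8 CPM in the Dnmt2-/- libraries and 29.4 CPM in the Dnmt2+/+ library. TMM scaling turned the genotype sign of all 5 (to between 0.03 and 0.72). None of the 9 ratios passed by genotype (two-sided exact permutation p of 0.429 or more), which does not show that they are alike. The largest difference in log2 ratio, Dnmt2-/- minus Dnmt2+/+, was 0.78, for miR-100-5p to miR-125b-5p. It ranged from 0.39 to 1.38 with 1 library left out.

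The diet difference was not shown to differ between genotypes. In Dnmt2-/- sperm the log2 fold changes of HFD over ND were 1.33 for miR-99a-5p, 1.25 for miR-99b-5p, 1.24 for miR-100-5p, 2.30 for miR-125a-5p and 3.01 for miR-125b-5p, with 0 of the 5 called by edgeR (adjusted p of 0.147 to 0.203) beside 1 of 187 arms (0.535%). In Dnmt2+/+ sperm they were 0.50, 0.06, 0.46, 1.34 and 1.57 in the same order, with 0 of the 5 called (adjusted p of 0.628 to 0.977) beside 1 of 187 arms (0.535%). The arm called in each genotype was let-7f-5p. Without Dnmt2+/+ ND replicate 1 or without Dnmt2+/+ ND replicate 2, miR-125a-5p (log2 fold change 2.30) and miR-125b-5p (3.01) were called in Dnmt2-/- sperm (adjusted p of 0.0215 to 0.0341 in edgeR), beside 68 of 217 arms (31.3%) and 68 of 207 arms (32.9%) in that order of libraries left out. Without Dnmt2+/+ ND replicate 2, miR-125b-5p was also called in Dnmt2+/+ sperm (3.36, adjusted p = 0.0361 in edgeR), beside 72 of 207 arms (34.8%), where the single remaining Dnmt2+/+ ND library is taken to vary like the other groups. The interaction was 0.78 to 1.45 (log2) for the 5, with a median of 1.17 over all arms; edgeR called 0 of 187 arms (0%; adjusted p = 0.789 for each of the 5), with 2 arms at an unadjusted p under 0.05, and DESeq2 called 0. Dnmt2-/- HFD and Dnmt2+/+ ND each hold 1 library of set C and the other groups hold none, so these values also compare sets.

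Each of the 5 had the same most frequent read length in every library. It was 21 nt for miR-99a-5p, 22 nt for miR-99b-5p and miR-100-5p, 23 nt for miR-125a-5p and 21 nt for miR-125b-5p, in 8 of 8 libraries each. The annotated lengths are 22 nt for 4 of them and 24 nt for miR-125a-5p, so the most frequent length of miR-99a-5p, miR-125a-5p and miR-125b-5p was 1 base short. That length held 55.2% to 65.3% of miR-99a-5p reads, 42.5% to 63.7% of miR-125a-5p reads and 35.1% to 67.6% of miR-125b-5p reads, for which 22 nt came close in set B (31.9% to 35.7%). miR-99a-5p and miR-100-5p, which differ only at U16A, differed in their most frequent length: 45.9% to 58.2% of miR-100-5p reads were 22 nt long. The 95% Wilson interval of such a share, which covers counting error only, was ± 1.25 to 2.74 percentage points for miR-99a-5p and up to ± 12.9 points for miR-125a-5p in Dnmt2-/- ND replicate 2, where it had 53 reads.

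**Figure D4:**
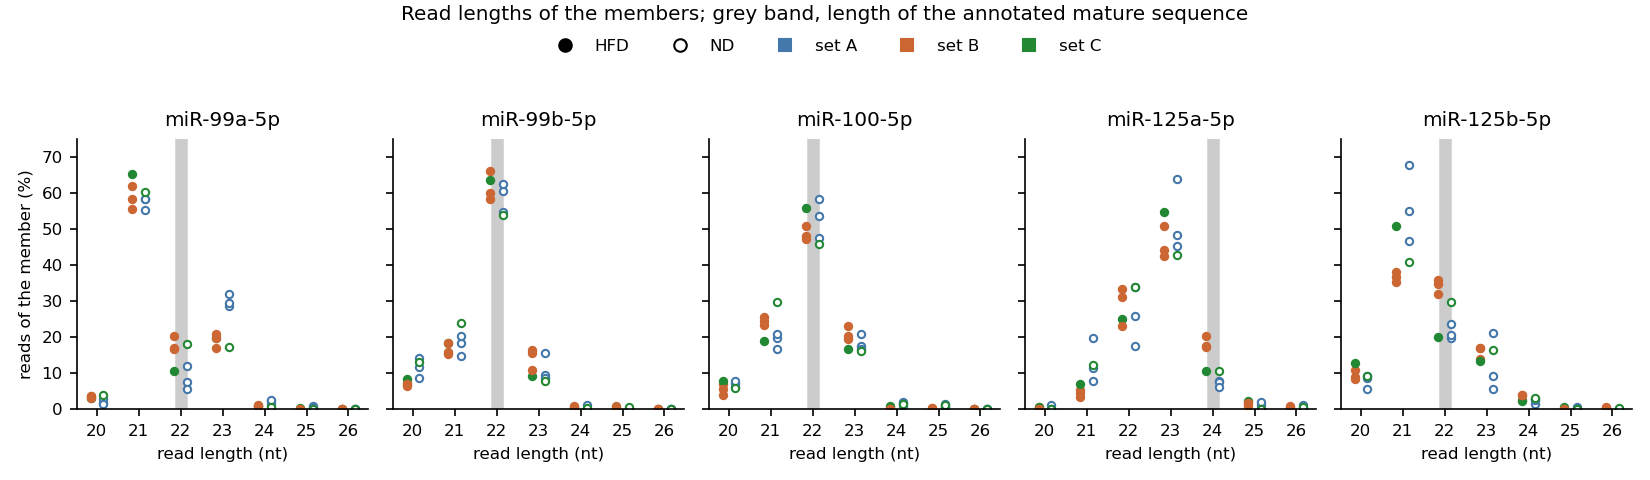
Share of reads of each microRNA (%) by read length (nt), 1 point per library, HFD filled and ND open, coloured by sequencing set; the grey band marks the annotated mature length. miR-99a-5p peaks at 21 nt and has 28.6% to 31.9% of its reads at 23 nt in the ND libraries of set A, against 16.9% to 20.8% in the other libraries, and miR-100-5p peaks at 22 nt.

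Mean length was compared by diet and by genotype with 10 two-sided exact permutation tests, and none passed after adjustment. With 4 libraries against 4 such a test cannot give a p below 0.0286. A fully separated microRNA therefore could not pass on its own, and the outcome does not show that lengths are alike. miR-99b-5p reads averaged 21.89 and 21.75 nt in Dnmt2-/- HFD sperm and 21.87 and 21.84 nt in Dnmt2+/+ HFD sperm, against 21.68 and 21.74 nt in Dnmt2-/- ND sperm and 21.71 and 21.61 nt in Dnmt2+/+ ND sperm. All HFD libraries lay above all ND libraries, by 0.15 nt on average (exact permutation p = 0.0286, adjusted p = 0.286). miR-125a-5p, miR-125b-5p, miR-100-5p and miR-99a-5p differed by 0.25, 0.12, -0.03 and -0.14 nt, HFD minus ND, with the diets overlapping. By genotype the widest difference was that of miR-125b-5p, at -0.23 nt for Dnmt2-/- minus Dnmt2+/+ (exact permutation p = 0.0571, adjusted p = 0.286).

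The most frequent miR-99a-5p reads are shown because their ends carry the difference between libraries; bases in capitals differ from the mature sequence or lie beyond its end. They are read sequences in DNA letters, 5′ to 3′, followed by the most frequent miR-100-5p read and by the RefSeq hairpin of Mir99a (GRCm38.p6), in which the capitals mark the mature arm.
miR-99a-5p, 21 nt: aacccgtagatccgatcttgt
miR-99a-5p, 23 nt with adenine: aacccgtagatccgatcttgtgA
miR-99a-5p, 22 nt, mature: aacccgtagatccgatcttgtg
miR-99a-5p, 21 nt with cytosine: aacccgtagatccgatcttgC
miR-100-5p, 22 nt, mature: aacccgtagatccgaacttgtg
Mir99a hairpin: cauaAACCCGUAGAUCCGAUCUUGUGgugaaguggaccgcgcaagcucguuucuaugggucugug

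The 21 nt read made up 44.9% to 60.5% of miR-99a-5p reads, and the mature 22 nt read 5.07% to 16.9%. The next base of the Mir99a hairpin after the mature arm is G, so the final A of the 23 nt read is not that base. That read made up 11.7% and 17.1% of miR-99a-5p reads in Dnmt2-/- HFD sperm and 15% and 13.5% in Dnmt2+/+ HFD sperm, against 24.4% and 23.9% in Dnmt2-/- ND sperm and 27.9% and 13.6% in Dnmt2+/+ ND sperm. The 3 libraries of set A were high, and Dnmt2+/+ ND replicate 2, the ND library of set C, lay among the HFD libraries.

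Reads of miR-99a-5p of any length whose added bases were only adenine showed the same order. Their share was 16.7% to 20.4% in set B, which is HFD, and 27.8% to 31.5% in set A, which is ND; in set C it was 20.6% in the HFD library and 17.1% in the ND library. In miR-100-5p, which ends in the same bases, adenine made up 8.84% to 14% on HFD and 9.94% to 17.3% on ND, and the diets overlapped. In let-7c-5p, from the cluster of miR-99a, adenine made up 3.95% to 6.71% on HFD and 3.74% to 5.2% on ND, so the split of set A from the others seen in miR-99a-5p was not seen in its neighbour.

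Cytosine at the 3′ end followed the sets in the let-7 arms as well. miR-99a-5p reads whose added bases were only cytosine made up 8.84% to 9.27% in set B and 1.45% to 3.06% in set A, with 3.23% in the HFD library and 6.21% in the ND library of set C. In let-7c-5p they made up 11.1% to 13.1% in set B and 2.2% to 4.37% in set A, with 4.28% in the HFD library and 8.63% in the ND library of set C. In both arms the order within set C was opposite to that of sets B and A. miR-125b-5p reads whose added bases were only uracil made up 24.6% and 15.4% in Dnmt2-/- HFD sperm and 26% and 26.7% in Dnmt2+/+ HFD sperm, against 15% and 9.86% in Dnmt2-/- ND sperm and 16.1% and 14.5% in Dnmt2+/+ ND sperm. In the most frequent of these reads uracil stands in place of the final A of the mature arm. That read made up 8.38% to 17.9% of miR-125b-5p reads on HFD and 7.04% to 9.29% on ND. The next base of the Mir125b-1 hairpin after the mature arm is U, so only uracil beyond the full mature sequence may be encoded there. The Mir125b-2 hairpin was not read. The 3 libraries of set B were high and the HFD library of set C lay among the ND libraries. These shares were not tested, and set and diet cannot be told apart in sets A and B.

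**Figure D5:**
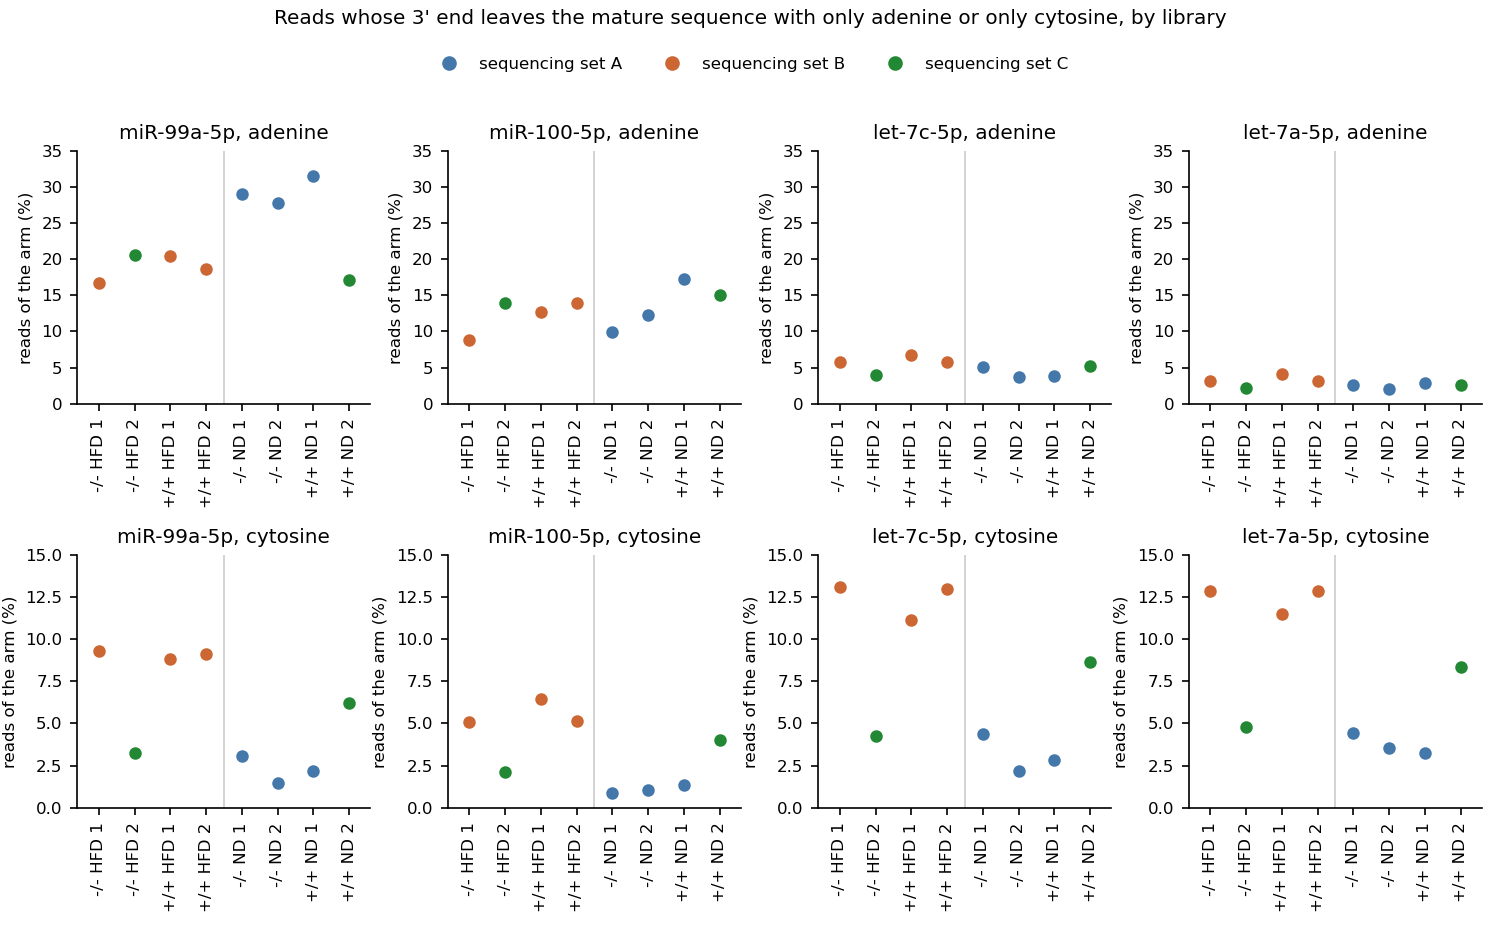
Share of reads (%) whose 3′ end leaves the mature sequence with only adenine (top) or only cytosine (bottom), for miR-99a-5p, miR-100-5p, let-7c-5p and let-7a-5p, 1 point per library, HFD left and ND right, coloured by sequencing set. Adenine on miR-99a-5p is at 27.8% to 31.5% in set A and lower in all other libraries, and cytosine is highest in set B in all 4 arms.

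The opposite arms of the hairpins were rare. miR-99b-3p had 136 reads over all libraries, 4.32% of the reads of both arms of its hairpin, and miR-125a-3p had 44 reads, or 2.58%. miR-125b-1-3p and miR-125b-2-3p had 59 and 47 reads, together 2.44% of those of miR-125b. miR-99a-3p had 2 reads against 26718 of miR-99a-5p, and miR-100-3p had 0 reads against 4346 of miR-100-5p, where a count of 0 allows 3 reads in each library, or 0.158 to 0.295 CPM. On the let-7 side of the clusters, let-7a-2-3p had 0 reads, let-7c-1-3p 7 and let-7e-3p 4. miR-99a-3p, miR-100-3p and these 3 let-7 arms were too few to compare between diets. Of the 4 opposite arms that entered the fit, miR-125a-3p had a log2 fold change of 2.33 for HFD over ND, miR-125b-1-3p 2.02, miR-125b-2-3p 1.29 and miR-99b-3p 0.23, and none passed (adjusted p of 0.0971 to 0.801 in edgeR).

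Each of the 5 was set beside the 3 arms most like it across libraries, taken from outside the 5, let-7, the opposite arms and miR-10. The values are Pearson correlations of log2(CPM + 1) over 8 libraries, among 65 such arms with a mean of at least 10 CPM; libraries share their sequencing set and their microRNA content, so high values are common, and no p is given. miR-125b-5p was most like miR-200c-3p, an epithelial microRNA (r = 0.99), miR-21a-5p (0.98) and miR-24-3p (0.98), with a median of 0.89 over the 65 arms, against 0.89 with let-7a-5p and 0.79 with let-7c-5p. miR-99a-5p was most like miR-199a-3p/miR-199b-3p (0.97), which share their first 20 bases, then miR-200a-3p (0.97) and miR-24-3p (0.97), with a median of 0.90, against 0.65 with let-7c-5p and 0.95 with miR-125b-5p. In the marker lists below, miR-199a-3p is a smooth muscle and connective tissue arm and miR-200a-3p an epithelial arm. miR-125a-5p was most like miR-196a-5p (0.97), miR-200c-3p (0.97) and miR-1839-5p (0.97), with a median of 0.85, against 0.90 with let-7e-5p and 0.99 with miR-125b-5p, which is made from other chromosomes.

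miR-100-5p was most like miR-146b-5p (0.96), miR-9-5p (0.94) and miR-423-5p (0.93), with a median of 0.81, against 0.85 with let-7a-5p. miR-99b-5p was most like miR-30e-3p (0.94), miR-423-5p (0.88) and miR-470-5p (0.86), with a median of 0.61; its correlation with let-7e-5p was 0.54 and that with miR-125a-5p, of the same compact cluster, was 0.59.

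MicroRNAs that mark other cells were read in the same libraries. All 6 epithelial arms of the list (miR-200a, miR-200b, miR-200c, miR-141, miR-429 and miR-205) were detected, and they summed to 612 to 4012 CPM on HFD and 193 to 1935 CPM on ND. None of the 6 was called and the diets overlapped. Within set C their sum was 612 CPM in the HFD library and 1935 CPM in the ND library, the same order as for miR-99a-5p, miR-125a-5p and miR-125b-5p. Other lists given below had that order in set C too. Smooth muscle and connective tissue arms were at 8.49 CPM in the HFD library and 43.7 CPM in the ND library. The endothelial arm was at 7.82 and 14.2 CPM and the liver list at 11.4 and 20.4 CPM. The sums of the blood, striated muscle and germline lists ran the other way. The blood sum was at 38 CPM in the HFD library and 34.9 CPM in the ND library. Its arms miR-223-3p and miR-451a were lower in the HFD library. Striated muscle was read through 1 arm, at 0.676 and 0.147 CPM. The germline sum was at 835 and 706 CPM through miR-881-3p, at 728 and 545 CPM. Every other detected germline arm was lower in the HFD library. Whether epithelial or other cells contribute to the levels of miR-99a-5p, miR-125a-5p and miR-125b-5p was not tested.

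Of the blood list, 5 of the 6 arms in the table were detected and miR-144-3p was at 0 in all libraries; the sum was 38 to 96.4 CPM on HFD and 3 to 34.9 CPM on ND, mostly miR-146a-5p. The striated muscle list was read through miR-206-3p alone, at 0.676 to 75.3 CPM on HFD and 0.0759 to 0.158 CPM on ND, and it was called as higher on HFD. Its high values were those of set B, at 64.7 to 75.3 CPM. In set C it was at 0.676 CPM in the HFD library and 0.147 CPM in the ND library. Smooth muscle and connective tissue arms summed to 8.49 to 37.4 CPM on HFD and 2.59 to 43.7 CPM on ND, and the endothelial arm miR-126a-3p was at 7.82 to 19.2 CPM on HFD and 1.37 to 14.2 CPM on ND. The liver list summed to 6.4 to 11.8 CPM on HFD and 16.2 to 26.8 CPM on ND. Of 9 germline and sperm arms, 8 were in the table and detected, led by miR-881-3p; they summed to 365 to 835 CPM on HFD and 346 to 1553 CPM on ND, and miR-881-3p, miR-871-3p and miR-470-5p were read in every library. miR-34b-5p was at 0 in 3 libraries, miR-449a-5p in 1 and miR-463-3p in 4. The part of these other cells in the diet differences was not tested.

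miR-10a-5p and miR-10b-5p, relatives of the miR-99/miR-100 family by sequence, had no overlap between HFD and ND libraries in CPM. All HFD libraries lay above all ND libraries for 26 of 187 arms (13.9%). miR-10a-5p was at 2760 to 3363 CPM on HFD and 1102 to 2087 CPM on ND (log2 fold change 1.06, adjusted p = 0.0479 in edgeR). miR-10b-5p was at 1842 to 2372 CPM on HFD and 908 to 1735 CPM on ND, with a log2 fold change of 0.77 that did not pass (adjusted p = 0.103 in edgeR). The order depended on the scaling, as for miR-99a-5p, miR-100-5p and miR-99b-5p. Per microRNA read the diets overlapped for both miR-10 arms, and both means were lower on HFD than on ND. Whether miR-10 differs from miR-99 or miR-100 in its diet difference was not tested.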

How the data were processed

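Small RNA of 8 mouse sperm libraries was analysed. The deposited values are counts: each file gives distinct read sequences of cleaned reads with their length and number of reads. Trimming and alignment are not given in the sources used here. Other libraries of the series (3T3 cells) and their values were not used here.

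Reads were assigned to 1621 mature microRNA sequences of RefSeq (GRCm38.p6), with those sharing their first 20 bases counted as 1 feature, when 20 to 26 nt long and equal to the first 20 bases; 545 were detected. The 5 microRNAs, their partners and the marker lists were chosen with earlier results of these data known. Counts were fitted in edgeR 4.0.16 (R 4.3.3; quasi-likelihood test), 4 groups in one model, library size being all reads, low counts removed by filterByExpr, and Benjamini-Hochberg adjustment over the 187 arms tested; an adjusted p under 0.05 was called. Ratios and mean lengths were tested with exact permutations, two-sided, 4 libraries on each side (numpy 2.4.6), adjusted over 18 and 10 tests. Wilson intervals were computed with scipy 1.17.1. The fit was checked on simulated counts of 180 arms. Sequencing sets were taken from substitution rates in reads next to the 300 most abundant sequences. Named beside the 5 are their let-7, opposite-arm and miR-10 partners and, for each, the 3 most correlated other arms of at least 10 CPM.

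Alternatives were TMM, microRNA reads as library size, DESeq2 1.42.0, no filter, up to 1 mismatch, 18 to 30 nt, reads equal to the mature sequence, starts within 2 bases, the sequencing set or the replicate number as a term, set C alone, and each library left out. Replicates differed by more than counting noise (chi-square per arm of 55.6 to 1015), so none was counted as a repeat. Depth was 10165031 to 19030258 reads, and a count of 0 allows 3 counts; intervals and floors cover counting error only, since reads amplified by PCR and carrying no molecular identifier do not count molecules. Figures were drawn with matplotlib 3.10.9.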

Additional observations from a re-analysis of the deposited data

Results flagged for a closer look

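In 6 of 80 groups of 4 libraries, 1 library stood apart from the other 3 by Dixon's criterion; chance gives about 1 in 20. The explanations of these gaps were not tested.

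Dnmt2+/+ ND replicate 2, of set C, was the library that stood apart in 3 of them. Its miR-99a-5p level of 430.3 CPM was far above the other ND libraries, at 94.4 to 143 CPM. Its miR-125b-5p level of 50.2 CPM was far above theirs, at 5.4 to 10.6 CPM. Its log2 ratio of miR-125b-5p to let-7a-5p was -3.29, against -6.07 to -5.66 in the other Dnmt2+/+ libraries.

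Dnmt2-/- HFD replicate 2, the other library of set C, stood apart in 2. Its log2 ratio of miR-100-5p to let-7a-5p was -4.80, against -6.72 to -6.54 in the other HFD libraries, and its log2 ratio of miR-100-5p to miR-125b-5p was 1.08, against -0.84 to -0.57. Mean miR-125a-5p read length was 22.5 nt in Dnmt2-/- ND replicate 2, from 53 reads, against 22.7 to 22.8 nt in the other Dnmt2-/- libraries.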

How the results depend on the processing

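For 57 reported values, 887 alternative values were computed: 762 kept their direction and their side of the threshold, 104 changed sign, 11 passed a threshold that the reported value did not pass, and 10 moved by more than the tolerance for a value or count. Cause was not tested where no sentence gives one. Depth limits miR-125a-5p and miR-125b-5p most, with 53 and 71 reads in Dnmt2-/- ND replicate 2; diet in sets A and B cannot be told apart from the set, and set C has 1 library per diet.

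The number of arms called on diet was 14 as reported, 6 with TMM, 9 per microRNA read, 26 with DESeq2, 28 without the filter on low counts and 0 with the sequencing set as a term; leaving out 1 library gave 1 to 147. It was 2 without Dnmt2-/- ND replicate 1, 1 without Dnmt2-/- ND replicate 2 and 147 without Dnmt2+/+ ND replicate 2. For genotype, leaving out 1 library gave 0 to 70 arms, the 70 without Dnmt2+/+ ND replicate 1, and for the interaction 0 to 0. With the replicate number as a block 10 arms were called on diet, and the block changed no call of the 5; deviations of libraries with the same number correlated at -0.52 to 0.40 between groups, so the number does not pair them. The summed level of the 5, HFD minus ND, was 260.6 CPM, and 47.6 CPM from reads equal to the mature sequence, which are fewer reads, -143 CPM with TMM, -5348 counts per 1000000 microRNA reads and -234 CPM within set C.

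The diet difference over both genotypes (log2) turned as follows. miR-99a-5p was at -0.69 with TMM, -0.74 per microRNA read, -0.58 with DESeq2 and -0.93 with the set as a term. miR-99b-5p was at -1.02, -0.76 and -0.94, and miR-100-5p at -0.82, -0.66 and -0.73, with TMM, per microRNA read and with DESeq2. With the set as a term miR-125a-5p was at -0.43 and miR-125b-5p at -0.98. Without the filter miR-125b-5p was called at 2.29 (adjusted p = 0.0108 in edgeR), beside 28 of 545 arms (5.14%). In Dnmt2-/- sperm miR-125b-5p was then called at 3.01 (adjusted p = 0.0437 in edgeR), beside 20 of 545 arms (3.67%).

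In Dnmt2+/+ sperm alone the diet difference of miR-99a-5p was -0.63 with TMM, -0.99 per microRNA read, -0.54 with DESeq2 and -1.04 with the set as a term. miR-99b-5p was at -1.50, -1.30 and -1.41, and miR-100-5p at -0.99, -0.95 and -0.90, in the order TMM, per microRNA read, DESeq2. miR-125a-5p was at -0.082 per microRNA read and -0.72 with the set, and miR-125b-5p at -1.14 with the set. In Dnmt2-/- sperm miR-99a-5p was at -0.75, -0.50, -0.61 and, with the set, -0.82; miR-99b-5p was at -0.54, -0.22 and -0.47, and miR-100-5p at -0.66, -0.37 and -0.56, in the same order. With the set as a term miR-125a-5p was at -0.13 and miR-125b-5p at -0.82.

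The genotype difference turned for miR-99a-5p to 0.26 with TMM and 0.12 with DESeq2, for miR-99b-5p to 0.62 with TMM, 0.52 per microRNA read and 0.47 with DESeq2, and for miR-100-5p to 0.72, 0.55 and 0.57 in that order. For miR-125a-5p it turned to 0.48, 0.14 and 0.37, and to 0.19 with the set; for miR-125b-5p to 0.032 with TMM and 0.081 with the set. The interaction turned to -0.12 with TMM and -0.064 with DESeq2 for miR-99a-5p, and to -0.10 with TMM for miR-125a-5p.

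Within set C the log2 ratio of miR-100-5p to miR-125b-5p differed by 1.16 and that of miR-99b-5p to miR-125a-5p by 0.69, HFD minus ND. From reads equal to the mature sequence, the genotype difference in log2 ratio was 0.16 for miR-125a-5p to let-7e-5p and -0.03 for miR-99b-5p to miR-125a-5p. Mean length within set C differed by 0.00103 nt for miR-99a-5p, 0.036 nt for miR-100-5p and -0.22 nt for miR-125b-5p, HFD minus ND, and the genotype difference of miR-100-5p was 0.011 nt with reads of 18 to 30 nt.

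Leaving out 1 library gave diet differences of 0.62 to 1.42 for miR-99a-5p, 0.48 to 0.80 for miR-99b-5p, 0.72 to 1.01 for miR-100-5p, 1.35 to 2.29 for miR-125a-5p and 1.66 to 3.18 for miR-125b-5p. Diet in Dnmt2+/+ sperm ranged from -0.082 to 1.51 for miR-99a-5p, -0.027 to 0.16 for miR-99b-5p and 0.79 to 3.36 for miR-125b-5p, which was called without Dnmt2+/+ ND replicate 2. Diet in Dnmt2-/- sperm ranged from 1.37 to 2.86 for miR-125a-5p and 1.75 to 3.68 for miR-125b-5p, and the interaction from -0.18 to 1.41 for miR-99a-5p and -0.35 to 2.22 for miR-125b-5p. The genotype difference in log2 ratio ranged from -0.46 to 0.74 for miR-99a-5p to let-7c-5p, -0.89 to 0.39 for miR-125b-5p to let-7c-5p, -0.11 to 1.10 for miR-100-5p to let-7a-5p, -0.66 to 0.27 for miR-125b-5p to let-7a-5p, -0.50 to 0.85 for miR-99b-5p to let-7e-5p and -0.47 to 0.54 for miR-125a-5p to let-7e-5p. It ranged from -0.04 to 0.70 for miR-99a-5p to miR-125b-5p and -0.16 to 0.68 for miR-99b-5p to miR-125a-5p, and the diet difference of miR-125b-5p to let-7c-5p from -0.99 to 0.29. Genotype differences in mean length ranged from -0.044 to 0.054 nt for miR-99a-5p, -0.041 to 0.047 nt for miR-99b-5p, -0.033 to 0.0072 nt for miR-100-5p and -0.058 to 0.126 nt for miR-125a-5p.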
